A study of Mus musculus with 6 samples.

Results

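The 37 genes described here carry glucose into the heart muscle cell and through glycolysis, lactate and pyruvate handling and glycogen storage. They were taken by name from a fixed list, and every probe whose RefSeq accession maps to one of them was read. All 37 were measured, among 14550 named genes compared. The samples were heart ventricles of female C57BL/6N mice aged 21 weeks. In 3 samples the animals had undergone sleep fragmentation for 5 weeks, and in 3 control samples they had been left undisturbed. Each sample was hybridised to 1 one-colour array, and the labels name no other treatment and no altered allele.

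The labels do not say whether each sample is a different animal. The p-values therefore speak only to the scatter of these 6 samples, part or all of which may be technical. The 3 sleep fragmented arrays carry scan number 1 and the 3 control arrays scan number 2, so scan and group cannot be told apart. Ventricle RNA comes from many cell types, and in such bulk samples fewer cells of a type and less RNA per cell cannot be told apart. A level below is the log2 signal of a probe minus its array's 75th percentile. A difference is the sleep fragmented mean minus the control mean of such levels (log2 fold change). Its standard error (SE) is limma's moderated one, which draws a probe's own spread toward that of all kept probes. Levels of different genes come from different probes and are not compared with each other.

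Glucose enters a cardiomyocyte through GLUT4 (Slc2a4), which moves to the surface on an insulin or contraction signal, and through GLUT1 (Slc2a1), which supplies a basal flow. Hexokinase traps it as glucose-6-phosphate, which is either stored as glycogen or split by glycolysis into pyruvate. Pyruvate is reduced to lactate by lactate dehydrogenase, or enters the mitochondrion through its carrier and is oxidised by the pyruvate dehydrogenase complex, which the Pdk kinases switch off. The adult heart burns mainly fatty acids, and glucose use rises with insulin, work load and low oxygen. The carbohydrate response factors Mlxipl (ChREBP) and Mlxip (MondoA) read the sugar phosphate level at paired E-box-like motifs in promoters. Txnip and its relative Arrdc4 are well-known targets of these factors, and Ldha is a well-known target of the hypoxia factor Hif1a.

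The promoters of these 3 genes are shown because the results below turn to the sugar-responsive pair and to the hypoxia targets. They are RefSeq windows of 250 bases before a transcript start on assembly GRCm38.p6, written 5′ to 3′ on the gene's strand. Capitals mark letters that match CACGNG (the E-box-like unit of the carbohydrate response element) or ACGTG (the core read by hypoxia factors) on either strand; the E-box CACGTG is a case of both, so the matches overlap. Txnip lies at chr3:96557707-96557956 on the plus strand, Arrdc4 at chr7:68749239-68749488 on the minus strand and Ldha at chr7:46845554-46845803 on the plus strand.
Txnip: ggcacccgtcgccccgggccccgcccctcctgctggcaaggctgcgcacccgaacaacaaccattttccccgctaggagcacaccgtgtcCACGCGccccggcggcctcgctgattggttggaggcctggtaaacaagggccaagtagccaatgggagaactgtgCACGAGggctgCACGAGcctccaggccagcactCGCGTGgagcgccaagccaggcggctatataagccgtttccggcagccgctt
Arrdc4: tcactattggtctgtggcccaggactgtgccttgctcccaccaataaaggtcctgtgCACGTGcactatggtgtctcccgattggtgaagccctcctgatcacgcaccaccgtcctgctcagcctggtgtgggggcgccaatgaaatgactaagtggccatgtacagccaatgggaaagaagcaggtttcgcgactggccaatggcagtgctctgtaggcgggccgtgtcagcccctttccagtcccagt
Ldha: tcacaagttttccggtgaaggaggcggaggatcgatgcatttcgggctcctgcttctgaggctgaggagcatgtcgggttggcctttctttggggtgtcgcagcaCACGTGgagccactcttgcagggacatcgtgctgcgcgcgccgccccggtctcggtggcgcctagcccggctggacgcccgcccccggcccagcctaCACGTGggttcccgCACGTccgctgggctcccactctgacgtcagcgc

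The Txnip window holds 4 CACGNG matches, and the middle pair, both with the letters CACGAG, are separated by 5 bases. The Arrdc4 window holds 1 CACGNG match, which is an E-box. The Ldha window shown holds 2 E-boxes and 5 ACGTG matches counted over both strands, where each E-box counts on each strand. A second Ldha window, at chr7:46846832-46847081, holds 1 CACGNG match and no E-box or ACGTG. The table had a promoter for 36 of the 37 genes (Slc2a4 had none). At least 1 window held CACGNG in 19 of the 36 (52.8%), against 26.1% of 27025 genes and 23.5% of 32851 windows. ACGTG was present in 16 of the 36 (44.4%), against 18.5% of genes and 16.6% of windows. CACGTG was present in 6 (16.7%), against 6.9% of genes and 6.0% of windows. The shares of the 36 count a gene with any matching window, so the share of genes is the like measure and the share of windows is not. A gene with more windows has more chances to match, and the number of windows was not matched. A match of letters is a description and not a bound site.

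No gene of the pathway passed the test between the groups. Across the whole array, limma with Benjamini-Hochberg adjustment called 0 of 25221 probes (0%) at an adjusted p under 0.05, and the smallest adjusted p of any of the 37 genes was 0.949. At an unadjusted limma p under 0.05, 395 of 14550 named genes (2.71%) were called and 0 of the 37. Of the 37 differences, 18 were positive and 19 negative. Their median was -0.01, against 0.06 over all named genes, of which 59.4% were positive. They ran from -0.40 for Pfkfb2 to 0.36 for Pfkfb3.

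The limma intervals give a range for the difference between these arrays under the scaling used here. They do not bound an effect of sleep fragmentation, since scan and group cannot be told apart and the scatter may be technical. Another scaling moves the differences, and with median scaling the median of the 37 was -0.21. The 95% interval of the difference lay within 1.5-fold in either direction for 18 of the 37 genes (48.6%, against 34.7% of all named genes). It lay within 2-fold for 36 of them (97.3%, against 84.6%), and Pfkfb3 was the exception. In 31 of the 37 (83.8%, against 73.1% of all named genes) the difference was smaller than the SD of the arrays within a group; it exceeded that SD for Txnip, Gpi1, Pfkfb2, Pgam1, Eno1 and Slc16a1. The median size of the difference was 0.12, beside a median SD of 0.27 within the groups and a median range of 0.64 over the 6 arrays.

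**Figure D1:**
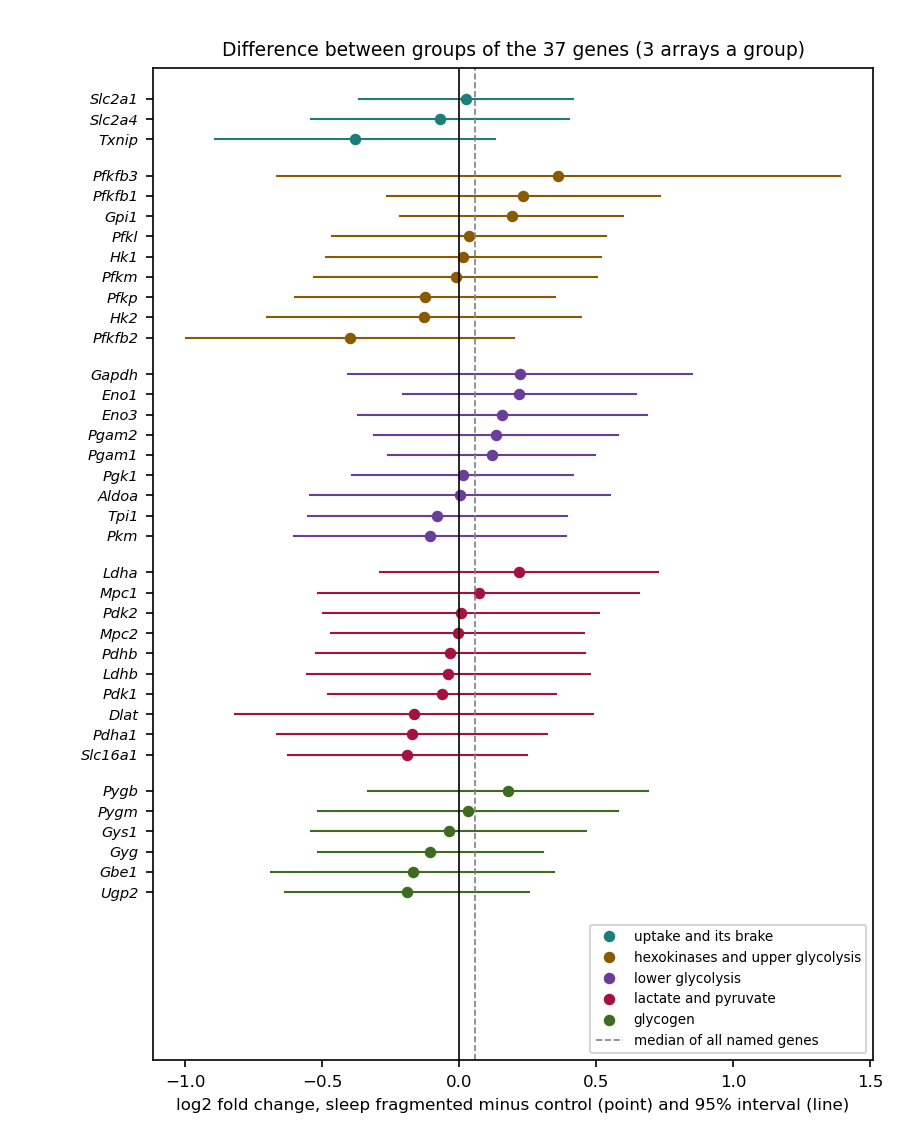
Difference between sleep fragmented and control arrays for each of the 37 genes (x axis, log2 fold change; point) with its 95% interval (line), ordered within 5 role groups; n = 3 arrays a group. All 37 intervals cross 0, and the dashed line at 0.06 is the median of all named genes.

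Among the uptake genes, both transporters lay near equality and the brake Txnip was lower on average. Slc2a1 differed by 0.02 ± 0.17 (SE) and Slc2a4 by -0.07 ± 0.21, with a 95% interval for Slc2a4 from 0.69-fold to 1.32-fold. Txnip encodes the arrestin-like protein that draws glucose transporters into the cell and binds thioredoxin. Its level was 4.19, 3.89 and 4.42 on sleep fragmented arrays 1 to 3 and 4.23, 4.62 and 4.81 on control arrays 1 to 3. Sleep fragmented array 2 was the lowest and control array 3 the highest, and the groups overlapped because sleep fragmented array 3 lay above control array 1. The Txnip difference was -0.38 ± 0.23, or 1.30-fold lower (95% interval of the log2 fold change -0.89 to 0.13), with an unadjusted limma p of 0.127 and an adjusted p of 0.949. Its second probe gave -0.33. The direction was negative under all 18 settings of processing and array choice, from -0.12 with array weights to -0.59 with median scaling. These settings are not independent of each other. The changes of filter, block and prior left the Txnip difference at -0.38, and the other settings reuse the same arrays. Under median scaling, which moved the median of all genes to -0.15, the unadjusted limma p was 0.024 and the groups did not overlap. With normexp background correction the difference was -0.49 and the unadjusted p 0.020. The adjusted p stayed at 0.611 or above in each setting.

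The hexokinases and upper glycolytic enzymes went both ways, with 5 of 9 positive and a median of 0.01. Hk1, the constitutive hexokinase, differed by 0.01 ± 0.22 and Hk2, the insulin-responsive one, by -0.13 ± 0.25. Gpi1, which turns glucose-6-phosphate into fructose-6-phosphate, differed by 0.19 ± 0.18, and its 3 probes ran from 0.19 to 0.32. The phosphofructokinase subunits Pfkm, Pfkl and Pfkp, which catalyse the committed step, differed by -0.01 ± 0.23, 0.04 ± 0.22 and -0.13 ± 0.21. The second Pfkp probe had the opposite sign, at 0.11.

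The Pfkfb enzymes make and break fructose-2,6-bisphosphate, the strongest activator of phosphofructokinase, and they held both ends of the range. Pfkfb2, the form enriched in heart, stood at 0.46, 0.55 and 1.40 on the sleep fragmented arrays and at 1.15, 1.11 and 1.35 on the controls. Sleep fragmented arrays 1 and 2 lay below every control, but array 3 lay above them all. The difference was -0.40 ± 0.26, with an unadjusted limma p of 0.165. Without sleep fragmented array 3 it was -0.70 with an unadjusted limma p of 0.013, and without sleep fragmented array 1 it was -0.23. Pfkfb1 differed by 0.23 ± 0.22.

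Pfkfb3, the inducible form of the family, had the widest spread of the 37. Its level was -0.60, 1.17 and -0.43 on the sleep fragmented arrays and -0.43, 0.22 and -0.74 on the controls. In both groups array 2 was the highest and the other arrays lay together. The difference of 0.36 ± 0.45 had a 95% interval from 0.63-fold to 2.62-fold, and it turned to -0.20 without sleep fragmented array 2. The second, dimmer Pfkfb3 probe gave 0.32 but did not have array 2 as the highest in either group, with -2.26, -2.36 and -2.46 on the sleep fragmented arrays and -2.96, -2.89 and -2.19 on the controls. Sleep fragmented array 2 and control array 2 were also the arrays with the highest adipocyte and atrial marker levels, given below; the part of that in the values of the first Pfkfb3 probe was not tested.

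None of the 9 enzymes of lower glycolysis passed the test, and the direction of the group depended on the processing. As reported here 7 of the 9 were positive (59.4% of all named genes were), with a median of 0.12. With quantile normalization, in the authors' deposited log2 table and without sleep fragmented array 1, 4 were positive, and with median scaling 2 were (Gapdh and Eno1). The deposited table and quantile normalization gave nearly the same differences, so they are not separate checks. Pgam1, the broadly expressed phosphoglycerate mutase, was the 1 gene of the 37 whose groups did not overlap. Its level was 3.87, 3.97 and 3.87 on the sleep fragmented arrays and 3.76, 3.80 and 3.79 on the controls. The difference was small, at 0.12 ± 0.17 or 1.09-fold higher, with an unadjusted limma p of 0.498. The SD of Pgam1 within the groups was 0.04, so the moderated SE and p rest largely on the spread of other probes. Groups without overlap were found for 1077 of the 14550 named genes (7.40%). Of these, 502 (3.45% of the named genes) were higher in the sleep fragmented group. The count of 1 gene of 37 is not above either share. The Pgam1 difference was 0.003 with normexp background correction and -0.09 with median scaling.

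Gapdh, often used as a reference gene, differed by 0.22 ± 0.28, and its 7 probes ran from -0.07 to 0.22. The difference turned negative without sleep fragmented array 1 (-0.06), with quantile normalization (-0.08) and in the authors' deposited table (-0.08). Its level was 8.22, 7.24 and 7.50 on the sleep fragmented arrays and 7.52, 7.13 and 7.64 on the controls. Only sleep fragmented array 1 lay above the controls. Eno1, the ubiquitous enolase, differed by 0.22 ± 0.19, and Eno3, the muscle enolase, by 0.16 ± 0.23, which turned to -0.10 with quantile normalization. Pgam2, the muscle mutase, differed by 0.13 ± 0.20. Aldoa, Pgk1, Tpi1 and Pkm, which carry aldolase, phosphoglycerate kinase, triosephosphate isomerase and pyruvate kinase, lay between -0.11 and 0.01.

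In the lactate and pyruvate group, 3 of 10 genes were positive and the median was -0.04. Ldha, the lactate dehydrogenase subunit favoured in glycolytic tissue, stood at 7.45, 6.82 and 6.94 on the sleep fragmented arrays and at 6.999, 6.62 and 6.94 on the controls. Sleep fragmented array 1 was the highest and the groups overlapped. The difference was 0.22 ± 0.22, but the 2 other Ldha probes gave -0.26 and 0.11, so the direction depends on the probe. It was 0.01 with quantile normalization and with median scaling and 0.03 without sleep fragmented array 1. Ldhb, the subunit typical of heart, differed by -0.04 ± 0.23. The monocarboxylate transporter Slc16a1 differed by -0.19 ± 0.19 and was above background on 5 of the 6 arrays.

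The mitochondrial pyruvate carrier subunits Mpc1 and Mpc2 differed by 0.07 ± 0.26 and -0.01 ± 0.20, and the second Mpc1 probe gave -0.11. The subunits of pyruvate dehydrogenase were all negative by small amounts, with Pdha1 at -0.17 ± 0.22, Pdhb at -0.03 ± 0.22 and Dlat at -0.17 ± 0.29. The inhibitory kinases Pdk1 and Pdk2 differed by -0.06 ± 0.18 and 0.01 ± 0.22.

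Of the 6 glycogen genes, 2 were positive and the median was -0.07. Ugp2 makes UDP-glucose, the building block of glycogen. Its level was 4.53, 4.24 and 4.71 on the sleep fragmented arrays and 4.75, 4.52 and 4.78 on the controls. Sleep fragmented array 2 was the lowest, and arrays 1 and 3 lay within the control range. The difference was -0.19 ± 0.20 with an unadjusted limma p of 0.360, and the second probe gave -0.24. Gbe1, the branching enzyme, differed by -0.17 ± 0.23 and Gyg, the glycogenin primer, by -0.11 ± 0.18. Glycogen synthase Gys1 differed by -0.04 ± 0.22. The muscle and brain phosphorylases Pygm and Pygb, which release glucose-1-phosphate, differed by 0.03 ± 0.24 and 0.18 ± 0.23.

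**Figure D2:**
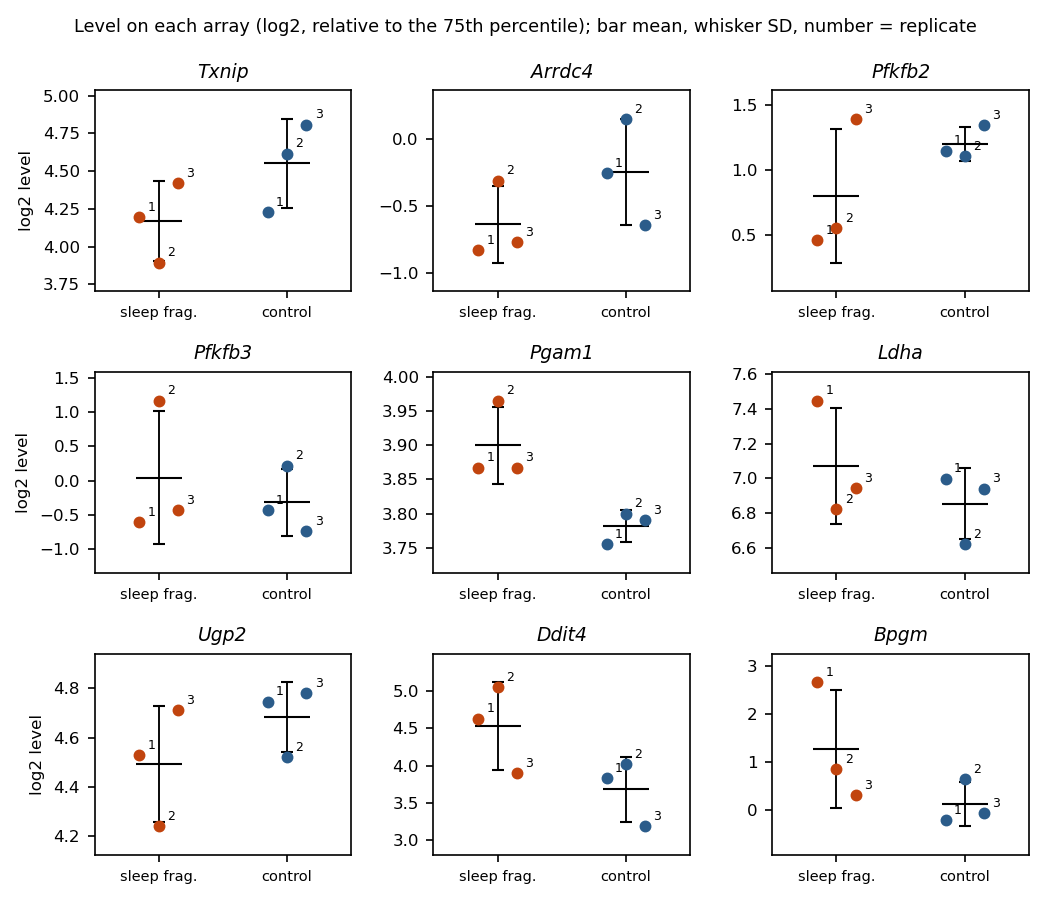
Level of 9 genes on each array (y axis, log2 signal minus the array's 75th percentile), sleep fragmented in orange and control in blue, with the replicate number beside each point, the mean as a bar and the SD as a whisker; n = 3 a group. Txnip, Pfkfb2 and Ugp2 overlap between groups, Pgam1 does not, and Bpgm is high on sleep fragmented array 1 (2.65).

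A ratio of 2 genes on the same array is not changed by subtracting 1 value from the whole array, as the scaling here and median scaling do, although normalizations that bend the scale can change it. In all, 13 pairs of isoforms or partners were compared by an exact two-sided permutation test, whose smallest possible p with 3 against 3 is 0.1. The pair of Pfkfb2 over Pfkfb1 was the only one without overlap. Its log2 ratio was -0.95, -0.58 and -0.30 on the sleep fragmented arrays and -0.29, 0.15 and 0.21 on the controls. The gap between the highest sleep fragmented and the lowest control array was small. The difference was -0.63, with an exact permutation p of 0.1 and 1 after Benjamini-Hochberg adjustment over the 13 pairs. The ratio of Ldha over Ldhb, which in muscle shifts with oxidative work, was 1.23, 1.24 and 0.91 on the sleep fragmented arrays and 0.81, 0.89 and 0.91 on the controls. It differed by 0.26 (exact permutation p 0.2, adjusted 1), and sleep fragmented array 3 lay inside the control range. For Slc2a4 over Slc2a1 the difference was -0.10, for Hk2 over Hk1 it was -0.14, and for Pygm over Pygb it was -0.14. For Pdk4 over Pdk2, the kinase pair that rises in fasting against the constitutive one, it was -0.15.

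Array 2 of each group stood apart across the 37 genes. The median deviation of the genes from their own means was -0.29 on sleep fragmented array 2 and -0.18 on control array 2, and between 0.01 and 0.12 on the other 4 arrays. Sleep fragmented array 2 was the lowest of its group in 28 of the 37 genes (75.7%), against 52.1% of all named genes and 51.9% of the brightest quintile of genes. Control array 2 was the lowest of its group in 29 (78.4%), against 56.7% and 51.2%. In 24 genes (64.9%) both were, against 38.8% and 33.5%. This holds for the scaling used here. With quantile normalization the medians on these arrays were -0.15 and -0.11, and with median scaling they were -0.23 and 0.18, so that control array 2 was no longer low, and sleep fragmented array 1, at -0.24, was as low as array 2 of its group.

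**Figure D3:**
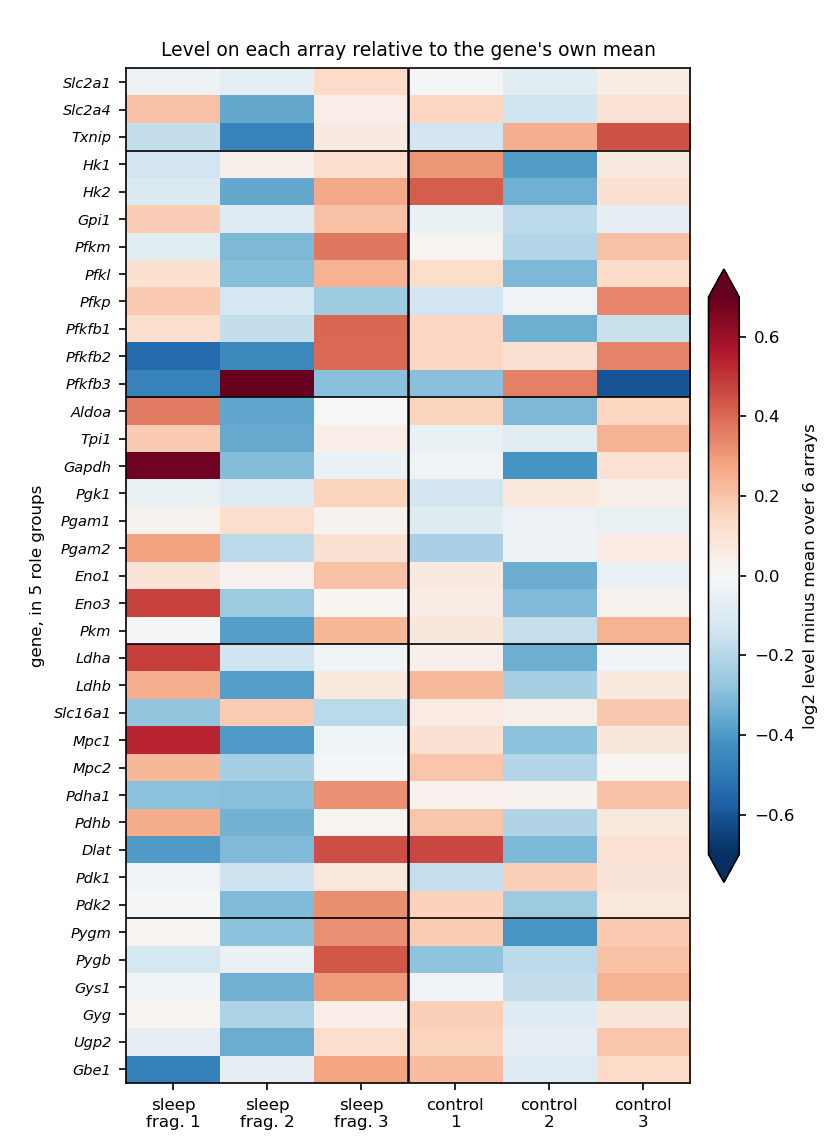
Level of each of the 37 genes on each array relative to the gene's own mean over 6 arrays (colour, log2), with genes in 5 role groups and the vertical line between sleep fragmented and control arrays. The columns of sleep fragmented array 2 and control array 2 are mostly blue, with medians of -0.29 and -0.18, and Pfkfb3 goes the other way there.

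Cell type markers were set beside these values. A marker level is the mean log2 level of the measured markers minus its control mean. For the atrial list, 3 of 4 markers were measured (Nppa, Myl4 and Myl7), and the level was 3.23 on sleep fragmented array 2 and 2.57 on control array 2, against -2.53 to 0.16 on the other arrays. For the adipocyte list, 4 of 7 were measured (Adipoq, Fabp4, Car3 and Cfd). Plin1, Cidec and Lep were not kept by the filter, which asks for signal above background on every array of either group. A gene above background on array 2 alone would be dropped by it. The adipocyte level was 2.75 on sleep fragmented array 2 and 1.92 on control array 2, against -2.03 to 0.11 elsewhere. Adipoq, Car3 and Cfd were highest on array 2 of each group, but Fabp4 was not. Its level was 6.01 on sleep fragmented array 2 and 5.96 on control array 2, and it was highest on sleep fragmented array 1, at 6.82. The cardiomyocyte list, with 10 of 10 measured, was lowest on the same arrays, at -0.22 and -0.21, and highest on sleep fragmented array 1, at 0.45. Of the skeletal muscle list, 7 of 11 were measured, and the fast myosins Myh1, Myh2 and Myh4 and Mylpf were not kept by the filter. The measured ones (Tnnt3, Tnni2, Tnnc2, Atp2a1, Pvalb, Actn3 and Mybpc2) were above background on all 6 arrays. The part of other tissue in the levels of the 37 genes was not tested.

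Without array 2 of either group, 24 of the 37 differences were positive and the median was 0.03, against 0.04 over all named genes. On these 2 against 2 arrays, 7 of the 37 had no overlap, beside 28.6% of all named genes, and 0 had an unadjusted limma p under 0.05. Of the 37 genes, 26 belonged to the brightest quintile of named genes. Sleep fragmented array 1 was the highest of the 6 arrays in 10 of these 26 and in 0 of the other 11. The same share over all named genes was not counted, so these counts have no background to be read against. The median deviation on sleep fragmented array 1 was 0.06 for these 26 and 0.01 for the brightest quintile of named genes. That array had the lowest 75th percentile signal, 126.8 against 212 to 262, and 59.2% of its probes were above background against 67.0% to 72.6% elsewhere.

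**Figure D4:**
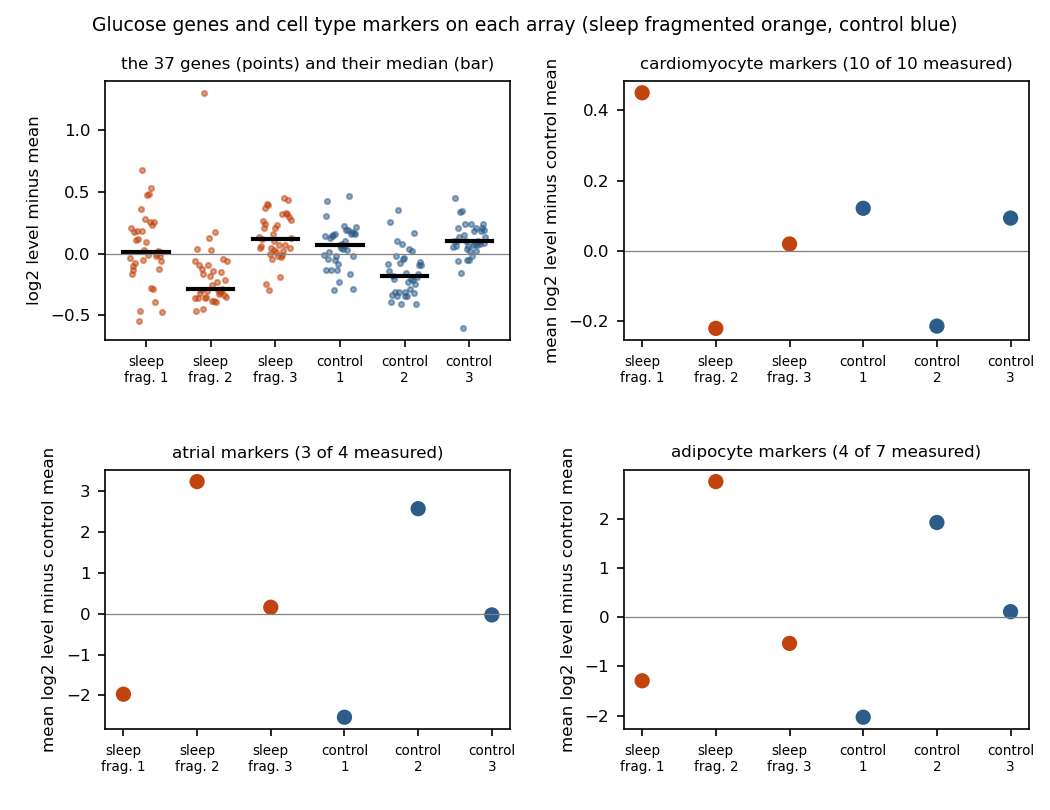
Deviation of the 37 genes from their means on each array (top left, points, with the median as a bar; log2) and the mean level of cardiomyocyte, atrial and adipocyte markers relative to the control mean (log2), sleep fragmented in orange and control in blue. Array 2 of each group has the lowest median of the 37 genes and the highest atrial (3.23 and 2.57) and adipocyte levels.

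The wider pathway was read from 124 further genes, of which 112 were measured. Their median difference was 0.04 and 63 were positive. By limma none passed the adjusted threshold; at an unadjusted p under 0.05, 3 were higher (Eno2, Adm and Ddit4) and 2 lower (Ppp1r3d and Rpe), which is 5 of 112 beside 2.71% of all named genes. These 5 depended on the scaling. With median scaling the unadjusted limma p was 0.137 for Eno2, 0.217 for Adm and 0.123 for Ddit4. Ppp1r3d and Rpe stayed under 0.05, and Irs1, Dld and Hif1a joined them. Only the further genes named for the smallest p in each list were read under other settings, so this is not a count over the 112. Adm was also above 0.05 in the authors' deposited table (0.051), as was Ddit4 with array weights (0.077). Each of the 5 kept its direction in all 18 settings, which are not independent of each other, and was under 0.05 in 11 (Adm) to 13 (Eno2) of them. Groups did not overlap for 14 of the 112, beside 7.40% of all named genes; 5 were higher (Eno2, Gys2, Phkg1, Gfpt1 and Bnip3l) and 9 lower.

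Among the 8 transporters and sugar sensors measured, the second sugar-responsive arrestin, Arrdc4, went the same way as Txnip. Its level was -0.83, -0.31 and -0.77 on the sleep fragmented arrays and -0.26, 0.15 and -0.64 on the controls. The groups overlapped, since sleep fragmented array 2 lay above control array 3. The difference was -0.39 ± 0.25, with an unadjusted limma p of 0.155. Arrdc4 and Txnip differ in which arrays are low, since array 2 of the sleep fragmented group is the lowest for Txnip and the highest of its group for Arrdc4. The dim transporters Slc2a10 and Slc5a1 differed by 0.45 ± 0.27 and 0.44 ± 0.28. They were 0.23 each with quantile normalization. The dimmest quintile of named genes, which holds Slc5a1, had a median difference of 0.25.

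Among the 18 genes of insulin signalling and GLUT4 trafficking, 9 were positive and 9 negative. The receptor substrate Irs1 stood at 2.38, 2.80 and 3.27 on the sleep fragmented arrays and 3.69, 3.11 and 3.14 on the controls, a difference of -0.50 ± 0.27 with overlap. Irs2, the second substrate, differed by 0.40 ± 0.24. Tbc1d4, the Akt substrate that holds GLUT4 vesicles inside the cell, stood at 3.56, 3.87 and 4.10 against 4.22, 4.16 and 4.10. The groups did not overlap, although array 3 of one group nearly met array 3 of the other. The Tbc1d4 difference was -0.32 ± 0.20, with an unadjusted limma p of 0.140.

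The remaining glycolytic isoforms had 8 of 11 positive values. Eno2, the neuronal enolase, was at -0.97, -1.27 and -1.15 on the sleep fragmented arrays and at -1.61, -1.79 and -1.52 on the controls. The groups were separate, the difference was 0.51 ± 0.18, and the unadjusted limma p was 0.022 (adjusted 0.949). Eno2 is a dim gene, in a quintile of named genes whose median difference was 0.17. The Eno2 difference was 0.39 with quantile normalization and 0.30 with median scaling. Bpgm makes the 2,3-bisphosphoglycerate of red cells. Its level was 2.65, 0.84 and 0.29 on the sleep fragmented arrays and -0.23, 0.63 and -0.08 on the controls, a difference of 1.15 ± 0.54 that was 0.46 without sleep fragmented array 1. The erythroid marker level, with 6 of 8 markers measured, was 2.51, 1.15 and 0.70 on the sleep fragmented arrays and -0.21 to 0.19 on the controls. The part of red cell RNA in the Bpgm values was not tested. Hk3, a hexokinase of white blood cells and a dim gene, differed by 0.52 ± 0.24, and by 0.29 with quantile normalization.

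In pyruvate oxidation and lactate transport, 6 of 11 were positive. Dld, the dehydrogenase subunit shared by the mitochondrial keto acid complexes, was at 3.26, 3.43 and 3.50 on the sleep fragmented arrays and 3.79, 3.82 and 3.58 on the controls. The groups did not overlap, and the difference was -0.34 ± 0.18 with an unadjusted limma p of 0.095. Pdk4, the kinase induced by fasting and fatty acids, was named for its place in the isoform pairs and differed by -0.15 ± 0.19. The lactate exporter Slc16a3 differed by 0.32 ± 0.20 and Slc16a7, another monocarboxylate transporter, by 0.25 ± 0.27. With median scaling these were 0.11 and 0.04.

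Among 22 genes of glycogen turnover, 12 were positive, and 5 had groups that did not overlap (Phkg1 and Gys2 higher, Ppp1r3d, Phka1 and Ppp1r3a lower). Ppp1r3d, which targets protein phosphatase 1 to glycogen, was at 1.29, 1.47 and 1.62 on the sleep fragmented arrays and 1.96, 1.79 and 1.95 on the controls. The groups were separate, with a difference of -0.44 ± 0.18 and an unadjusted limma p of 0.039 (adjusted 0.949). Phkg1, a catalytic subunit of phosphorylase kinase, differed by 0.41 ± 0.19 and Gys2, the liver glycogen synthase, by 0.32 ± 0.17. Gys2 was above background on 5 of 6 arrays and belongs to the dimmest quintile, and its difference was 0.06 with quantile normalization and in the authors' deposited table. Phkg1 was at 0.20 with median scaling.

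The branches off glycolysis were even, with 8 of 16 positive. Rpe, an epimerase of the pentose phosphate pathway, was at 0.20, 0.12 and 0.14 on the sleep fragmented arrays and 0.82, 0.66 and 0.40 on the controls. All sleep fragmented arrays lay below the controls, and the difference was -0.47 ± 0.18 with an unadjusted limma p of 0.031. Phgdh, the first enzyme of serine synthesis, differed by 0.49 ± 0.22, and Gfpt1, the entry to the hexosamine pathway, by 0.24 ± 0.18. Phgdh, a dim gene, was at 0.27 with quantile normalization, and Gfpt1 at 0.03 with median scaling.

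Of the 15 transcription factors measured, 10 were positive. Hif1a, the oxygen-sensitive factor, was at 0.36, 0.01 and 0.42 on the sleep fragmented arrays and 0.61, 0.44 and 0.63 on the controls. The groups did not overlap, and the difference was -0.30 ± 0.19 with an unadjusted limma p of 0.152. Nr4a1, an immediate-early nuclear receptor, differed by 0.78 ± 0.36 and Mef2c, a muscle factor, by 0.21 ± 0.21. With array weights Nr4a1 was at 0.19, and with median scaling Mef2c was at 0.01. Hypoxia targets outside glycolysis gave 7 of 11 positive values. Ddit4, which is induced by low oxygen, glucocorticoids and other stresses, was at 4.63, 5.05 and 3.90 on the sleep fragmented arrays and 3.83, 4.02 and 3.19 on the controls. Sleep fragmented array 3 lay below control array 2, and the difference was 0.84 ± 0.33 with an unadjusted limma p of 0.030. Adm, the vasodilator adrenomedullin, was at -0.45, -0.14 and -0.92 on the sleep fragmented arrays and -1.31, -0.84 and -1.13 on the controls. Its groups overlapped, and the difference was 0.59 ± 0.24 (unadjusted limma p 0.039). P4ha1, a collagen prolyl hydroxylase, differed by 0.27 ± 0.19, and by 0.07 with median scaling.

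**Figure D5:**
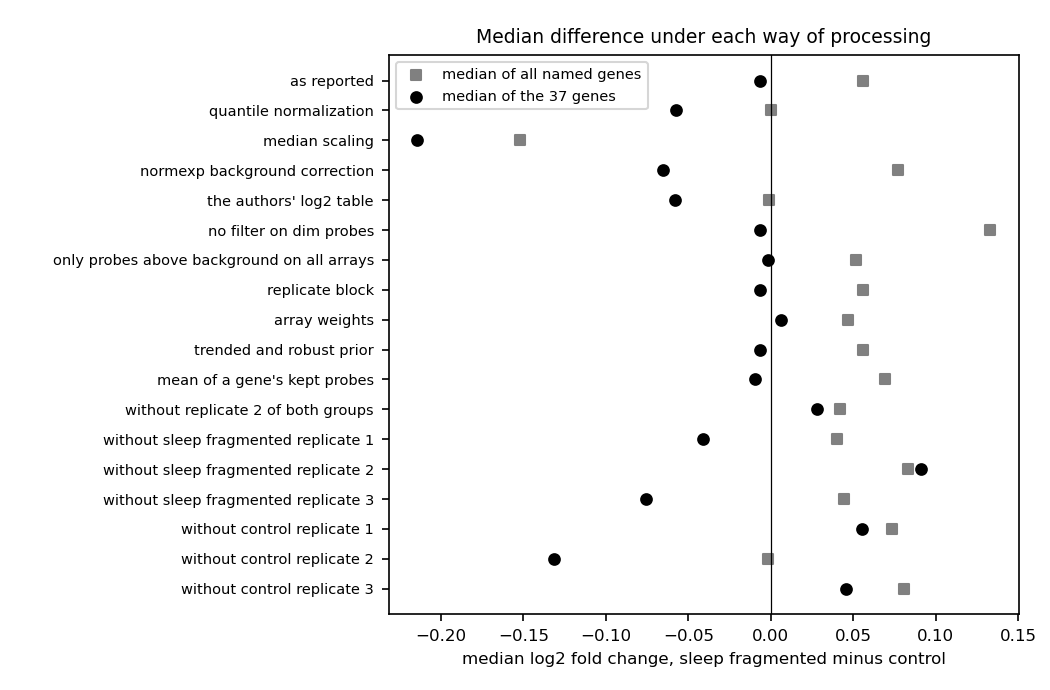
Median log2 fold change (x axis, sleep fragmented minus control) of the 37 genes (black circles) and of all named genes (grey squares) as reported and under 17 other ways of processing or choosing arrays (y axis). Median scaling gives the lowest values of both, -0.21 and -0.15.

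The direction of single genes depended on the processing. Of the 37 genes, 7 kept 1 sign under all 18 settings, namely Pfkfb1, Eno1 and Ldha on the positive side and Txnip, Pfkfb2, Gyg and Ugp2 on the negative side. The settings are not independent, since changes of filter, block and prior left the differences of these 7 unchanged. Median scaling left 5 of the 37 positive. The median of the 37 minus that of all named genes was -0.06 under the scaling used here, under quantile normalization and under median scaling. Over all 18 settings it ran from -0.14 (normexp background correction and no filter on dim probes) to 0.01 (without sleep fragmented array 2, where 20 of the 37 lay above the median of all genes against 11 as reported). The brightest quintile of genes, to which most of the 37 belong, had a median of -0.04.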

How the data were processed

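Total RNA of 6 ventricle samples was labelled with Cy3, per the labels' protocols. The deposited scanner output holds intensity values from array design 026655, read with Feature Extraction software 11.0.1.1, per the file headers; the submitters' processing notes name 10.5.1.1. The deposited spot flags (above background, outlier, saturation) are other values, coded 0 or 1. The authors' log2 table was used as an alternative; its making is not described in the sources used here, and its columns share a median of 5.53. Groups were taken from the end of the sample titles.

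Control spots and outlier spots (208 to 295 on an array) were dropped; 0 spots were saturated. From the processed intensity of 39429 probes (44397 spots), log2 values minus the array's 75th percentile were taken. Probes were kept where all arrays of either group showed them above background (25222); 1 lacked a value in a group. RefSeq accessions named 27234 probes (69.1%). The brightest kept probe stood for a gene; the 37 genes had 57 probes. limma 3.58.1 (R 4.3.3) compared 3 with 3 arrays, with Benjamini-Hochberg adjustment over all probes, and was tested on simulated data; 6 arrays limit the precision. Motifs were counted with Python 3.11.15.

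By rule, array values are given for those of the 37 genes at an unadjusted p under 0.05 or without overlap, or else for the largest difference in a role, and up to 3 genes of the smallest p are named from each further list. The array values of Pfkfb3, Gapdh and some genes of the further lists, and the names Bnip3l, Phka1, Ppp1r3a and Pdk4, were chosen after their values were seen. Cell type lists without a value above follow here as median differences, all without a call at an adjusted p: fibroblast 0.42, endothelium 0.06, smooth muscle 0.04, immune 0.25, nerve 0.03, skeletal muscle 0.07. Alternatives changed the scaling, background correction, filter, block, weights, prior, probe choice and arrays. The genes and lists were chosen with earlier results of these data known.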

Additional observations from a re-analysis of the deposited data

How the results depend on the processing

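No gene of the 37 passed the adjusted limma threshold under any of the 17 alternatives. Over all probes, 3 passed with normexp (run on median signals) and 5 without array 2 of either group, an alternative chosen after seeing the data. Median scaling gave 710 genes (4.88%) at an unadjusted limma p under 0.05, and 2 of the 37 at that threshold (Txnip and Pfkfb2). It left 4 of the 37 without overlap (Txnip, Pfkp, Tpi1 and Ugp2), beside 9.87% of all named genes. With that scaling 5 of the 37 were positive, their median was -0.21, and Pgam1 was reversed at -0.0901 (limma p 0.684). Normexp gave 1 of the 37 (Txnip) at an unadjusted limma p under 0.05, beside 3.43% of all named genes. Quantile normalization and the mean of a gene's probes each gave 2 of the 37 without overlap, beside 8.24% and 7.26% of all named genes. In the authors' deposited log2 values 2 isoform pairs were without overlap. No filter gave 693 of 20659 genes (3.35%) and array weights 961 of 14550 genes (6.6%) at an unadjusted limma p under 0.05. Without array 2 of either group, 4158 genes and 7 of the 37 did not overlap. Leaving out 1 array at a time gave 268 to 1418 genes at an unadjusted p under 0.05 (the most without control array 3), 2005 to 3485 genes without overlap, 0 to 1 of the 37 at that threshold, 1 to 5 of the 37 without overlap, and 1 to 4 isoform pairs. The causes were not tested, save that fewer arrays overlap less. The higher share of genes at an unadjusted p under 0.05 was 62.3%, and 35% with quantile normalization, 13% with median scaling and 34.4% in the authors' table.

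The deviations of same-numbered arrays had correlations of 0.06, 0.55 and 0.21 for numbers 1 to 3. The best correlation with an array of another number was 0.36, -0.22 and 0.21. The same number gave clearly the higher value for number 2 only, so the numbers were not taken to pair the samples. With the replicate block, which here equals array position on the slide, 4 probes passed and 1029 genes had an unadjusted p under 0.05; 0 of the 37 did. Signal over background limits Slc16a1, the 1 gene of the 37 not above background on every array.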
